A study of Mus musculus with 4 samples.

Results

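The let-7 3p arms are the mature miRNAs cut from the 3′ side of the let-7 and miR-98 hairpins. Membership was set by name, although the family was picked for study with earlier results of these data known, and 10 of the 1900 mature miRNA names in the count table belong to them: mmu-let-7a-1-3p, mmu-let-7b-3p, mmu-let-7c-2-3p, mmu-let-7d-3p, mmu-let-7e-3p, mmu-let-7f-1-3p, mmu-let-7f-2-3p, mmu-let-7g-3p, mmu-let-7i-3p and mmu-miR-98-3p. The species prefix mmu is left out from here on. Small RNA had been sequenced after immunoprecipitation of Argonaute2 (AGO2-RIP) from the olfactory bulb of C57BL/6 mice. The GFP-AGO2 group (n = 2 libraries, replicates 1 and 3) came from mice injected with LV.PGK.GFP-AGO2. That vector name stands for AGO2 fused to green fluorescent protein behind the PGK promoter, which is not restricted to a cell type. The Control group (n = 2, replicates 1 and 3) came from sham-injected mice that carried no vector, and both groups were collected 8 weeks after injection. The series design speaks of newborn neurons, whereas the tissue label is the dissected olfactory bulb, so cells with and without the vector cannot be told apart in these libraries. The mice's age and sex and the antibody were not given in the sources used here, nor whether replicates were separate mice. The p-values therefore measure the spread between libraries, which may be technical. Whether endogenous AGO2 was precipitated in Control was not tested.

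A let-7 precursor is a hairpin that the enzyme Dicer cuts into a short duplex of a 5p and a 3p strand. An Argonaute protein keeps mainly 1 strand as the guide that pairs with target RNAs through its seed, bases 2 to 8. For let-7 this is the 5p strand, one of the most abundant miRNAs of differentiated cells and of neurons, and the 3p strand is called the passenger because most of it is discarded. A passenger strand that stays in Argonaute carries a different seed from that of its partner and can in principle pair with different targets. Argonaute2 is known to bind a guide that begins with U or A more tightly than other guides.

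The mature sequences of all 10 arms were found in RefSeq (GRCm38.p6) and are shown because the seeds set the 3p arms apart from their 5p partners and from each other. They read 5′ to 3′, with the seed in capitals.
let-7a-1-3p: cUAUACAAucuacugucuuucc
let-7c-2-3p: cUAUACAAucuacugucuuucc
let-7b-3p: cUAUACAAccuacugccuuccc
let-7f-1-3p: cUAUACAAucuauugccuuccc
miR-98-3p: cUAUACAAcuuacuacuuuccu
let-7d-3p: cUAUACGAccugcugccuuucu
let-7e-3p: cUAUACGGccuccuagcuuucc
let-7f-2-3p: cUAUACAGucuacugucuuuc
let-7i-3p: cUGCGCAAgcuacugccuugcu
let-7g-3p: aCUGUACAggccacugccuugc
let-7d-5p: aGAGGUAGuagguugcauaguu
let-7a-5p: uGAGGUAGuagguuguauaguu

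Of the 10 arms, 5 shared the seed UAUACAA, and the other 5 had a seed of their own. No other mature mouse name in the RefSeq table carried any of these 6 seeds. In let-7d-3p, let-7e-3p and let-7f-2-3p the seed kept at least the first 5 bases of UAUACAA. The 3p arms began with C in 9 of 10 cases, against 348 of 1679 mature names in the RefSeq table (20.7%). Of their 9 partner 5p arms, 8 began with U and let-7d-5p began with A, and the 5p arms shown both carried the let-7 seed GAGGUAG. Let-7g-3p was the exception on the 3p side. It began with A, and read from its second base its seed was UGUACAG, which is the seed of let-7a-2-3p, a let-7 3p arm that is not among the 10.

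Let-7a-1-3p and let-7c-2-3p are identical in 22 of 22 bases, although their hairpins lie on different chromosomes. Reads of the mature RNA alone cannot tell them apart, and the division of counts between these names was made by the alignment. Let-7c-2-3p held 4.61% and 4.0% of the pair's counts in Control replicates 1 and 3, against 2.35% and 1.82% in the GFP-AGO2 replicates. Values given under either name are therefore uncertain in their origin, and the summed level of the pair is given with that of let-7a-1-3p.

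Let-7d, the hairpin with the most abundant 3p arm, is shown whole to place both arms, which are in capitals, 5p first. It lies at chr13:48536012-48536114 on the minus strand of GRCm38.
Mirlet7d: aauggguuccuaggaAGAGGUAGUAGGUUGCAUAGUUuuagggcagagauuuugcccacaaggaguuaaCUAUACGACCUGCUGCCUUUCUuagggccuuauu

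Each of the 10 arms had a single genomic position in the count table (mm10), and none overlapped another miRNA name. Let-7d-3p (chr13:48536024-48536045), let-7f-1-3p (chr13:48537833-48537854) and let-7a-1-3p (chr13:48538188-48538209) lie on the minus strand of chromosome 13, in exons of the long non-coding RNA gene 6720427I07Rik. Between let-7d-3p and let-7a-1-3p there are 2142 bases. Let-7c-2-3p (chr15:85706664-85706685) and let-7b-3p (chr15:85707379-85707400) lie on the plus strand in exons of the non-coding transcript Lncppara. Let-7e-3p (chr17:17830411-17830432, plus strand) lies in an intron of Spaca6, beside miR-99b and miR-125a. Let-7f-2-3p (chrX:151912403-151912423) and miR-98-3p (chrX:151913287-151913308) share an intron of Huwe1 on the plus strand. Let-7g-3p (chr9:106178902-106178923, plus strand) lies in an intron of Wdr82, and let-7i-3p (chr10:122985642-122985663, minus strand) in an exon of the pseudogene D630033A02Rik.

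Depth ran from 673916 to 1006861 counts per Control library and from 1858354 to 2809758 per GFP-AGO2 library, so the low members were measured with fewer counts in Control. Of the cell type lists, neuron markers rose in 2 of 9 tested names and fell in 1, where 17.3% of all 457 miRNAs were called higher and 17.1% lower, and their share of counts was 1.59% to 1.81% in Control and 2.01% to 2.23% in GFP-AGO2. Of the most abundant neuron markers, miR-124-3p was not called (log2 fold change -0.15, SE 0.18), and miR-9-3p was called higher (1.07, SE 0.26), but not without Control replicate 1 (0.80, edgeR adjusted p = 0.0906). Epithelial and sensory markers fell in 8 of 9 tested names, among them miR-183-5p and miR-200a-3p, and their share was 23.0% to 23.5% in Control and 2.57% to 5.01% in GFP-AGO2. Vascular, blood and immune markers fell in 4 of 6 tested names, with shares of 0.365% to 0.496% and 0.0366% to 0.171%, and miR-126a-3p, miR-126a-5p and miR-142-3p were at 0 in every library. All 3 oligodendrocyte markers were at 0, and they overlap other names in the annotation. The counting command carried no option for reads that overlap more than 1 name. Whether this produced any of the 0 values in these lists, vascular and blood names included, was not tested. The part of the marker differences in the results below was not tested. In bulk tissue, fewer cells of a type and less RNA per cell cannot be told apart.

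GFP-AGO2 was compared with Control to ask whether passenger arms were held in another proportion in the AGO2-RIP of vector-injected mice. Of the 10 arms, 8 passed the filter on low counts, each of them in both groups, and let-7g-3p and miR-98-3p did not. Of the 8 tested, 3 rose (let-7d-3p, let-7a-1-3p and let-7e-3p), none fell, and 5 were not called (edgeR quasi-likelihood test, adjusted p under 0.05 over 457 miRNAs). Among all 457 miRNAs tested, 17.3% were called higher and 17.1% lower. The median log2 fold change of the 8 arms was 0.44, against -0.01 over all miRNAs tested. In 4 of the 8 arms both GFP-AGO2 libraries lay above both Control libraries, and in the other 4 the groups overlapped, whereas 36.8% of all tested miRNAs were separated upward and 35.2% downward. DESeq2 called the same 3 arms, with 16.4% of all tested miRNAs called higher and 17.9% lower. Levels are given as CPM, the usual depth-scaled count unit, on TMM-scaled library sizes, in the order Control replicate 1, Control replicate 3, GFP-AGO2 replicate 1, GFP-AGO2 replicate 3.

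**Figure D1:**
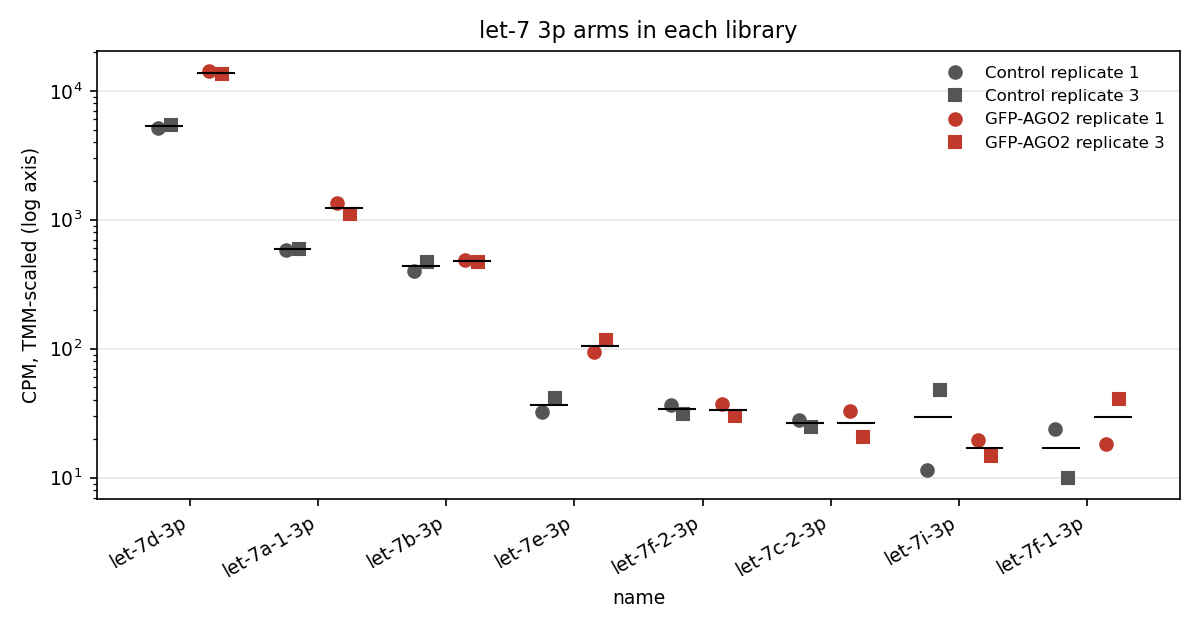
CPM on TMM-scaled library sizes (log axis) of the 8 tested let-7 3p arms in each library, with a bar at each group mean. Let-7d-3p stands highest in all 4 libraries, and the GFP-AGO2 points of let-7d-3p, let-7a-1-3p and let-7e-3p lie clear of the Control points.

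Let-7d-3p was by far the most abundant passenger arm, and rank 24 of the 457 tested miRNAs by mean CPM. It was measured at 5188, 5474, 14210 and 13387 CPM, from 4991, 3316, 42223 and 27282 counts. Both GFP-AGO2 libraries lay well above both Control libraries, and the libraries within a group were close. The fitted difference was 2.59-fold (1.37 on the log2 scale, SE 0.12, edgeR adjusted p = 0.00267), between group means of 5331 ± 202 and 13798 ± 582 CPM (SD, n = 2 each). Let-7d-3p had 9.07 times the mean CPM of the next arm in Control and 11.2 times in GFP-AGO2. It held 87.0% of all counts of the 10 arms, so any sum over the arms is mainly a measure of let-7d-3p.

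Let-7a-1-3p came next, from the same cluster on chromosome 13. Its values were 581, 594, 1359 and 1111 CPM. The Control libraries were nearly equal and both GFP-AGO2 libraries were higher (log2 fold change 1.07, SE 0.16, edgeR adjusted p = 0.00778). Summed with the identical let-7c-2-3p, the pair had 609, 619, 1391 and 1132 CPM, and the sum rose by 1.04 (SE 0.16, edgeR adjusted p = 0.00834). Without Control replicate 1 the value of let-7a-1-3p was 1.11 with an adjusted p of 0.0554, and without Control replicate 3 it was 1.05 with an adjusted p of 0.0576, so the call was lost in both cases. When the filter on low counts was rerun on the remaining libraries, a choice made after seeing the data, it was called in both (adjusted p = 0.0302 and 0.0219).

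Let-7e-3p was far less abundant, at 32.2, 41.3, 93.6 and 116 CPM. Both GFP-AGO2 libraries again lay above both Control libraries (log2 fold change 1.52, SE 0.28, edgeR adjusted p = 0.0122). Only 31 and 25 counts stood behind the Control values, against 278 and 236 in GFP-AGO2. No test compared the size of its rise with that of let-7d-3p.

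Let-7b-3p, the third arm by abundance, had 402, 467, 491 and 468 CPM. The lower GFP-AGO2 library was only just above the higher Control library, and the difference was not called (log2 fold change 0.14, SE 0.16, edgeR adjusted p = 0.530). This arm was measured with 283 to 1459 counts, so its standard error was as small as that of let-7a-1-3p while its estimate was nearer to 0.

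The remaining tested arms were low, with at most 111 counts in any library, and their groups overlapped. Let-7f-2-3p had 36.4, 31.4, 37.4 and 29.9 CPM (log2 fold change -0.01, SE 0.33). Let-7c-2-3p had 28.1, 24.8, 32.6 and 20.6 CPM (0.01, SE 0.40). Both had group means that were nearly the same. Let-7f-1-3p, from the same chromosome 13 cluster as let-7d-3p and let-7a-1-3p, had 23.9, 9.9, 18.2 and 40.7 CPM (0.74, SE 0.63). Let-7i-3p had 11.4, 47.9, 19.5 and 14.7 CPM (-0.73, SE 0.71). In let-7i-3p Control replicate 3 was the high library and Control replicate 1 the lowest, so the sign of its estimate rests on Control replicate 3, and without that library it was 0.55. None of these 4 was called (edgeR adjusted p 0.407 to 0.986), and their standard errors, 0.33 to 0.71, were well above the 0.12 of let-7d-3p.

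The 2 arms that were not tested were close to the limit of detection. MiR-98-3p had 2, 0, 19 and 9 counts. Its partner miR-98-5p was itself low for the family, at a mean of 678 CPM in Control and 852 CPM in GFP-AGO2. Let-7g-3p had 0 counts in 3 libraries and 3 counts in GFP-AGO2 replicate 3, and a count of 0 allows up to 2.98, 4.45 and 1.07 CPM, on the unscaled total, in Control replicate 1, Control replicate 3 and GFP-AGO2 replicate 1. In contrast, its partner let-7g-5p was abundant, at 18660 to 21083 CPM across the 4 libraries. With no filter on low counts, neither arm was called (miR-98-3p 2.32, SE 1.32, edgeR adjusted p = 0.260; let-7g-3p 3.36, SE 4.49, adjusted p = 0.703).

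In order of mean CPM in Control the tested arms ran let-7d-3p, let-7a-1-3p, let-7b-3p, let-7e-3p, let-7f-2-3p, let-7i-3p, let-7c-2-3p and let-7f-1-3p, a 315-fold span. All are 21 or 22 bases long. The first 3 were separated from the next in both Control libraries. From let-7e-3p to let-7c-2-3p each neighbour overlapped the next, and let-7c-2-3p lay above let-7f-1-3p in both Control libraries. In GFP-AGO2 let-7e-3p stood above let-7f-2-3p in both libraries, while let-7f-2-3p, let-7f-1-3p and let-7c-2-3p overlapped, and let-7i-3p, lowest by its mean, overlapped let-7f-1-3p.

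None of the 9 partner 5p arms, the guide strands of the family, was called by edgeR, but 5 of them were under at least 1 alternative. With total-count scaling let-7c-5p (0.39, adjusted p = 0.0244) and let-7i-5p (0.67, adjusted p = 0.0122) were called higher, and without GFP-AGO2 replicate 3 let-7c-5p, let-7f-5p and let-7i-5p were called higher and let-7a-5p lower (-0.26, adjusted p = 0.0300). Their median log2 fold change was 0.07. Let-7d-5p had 21820, 22456, 19729 and 19386 CPM (-0.18, SE 0.11, adjusted p = 0.270), with both GFP-AGO2 libraries below both Control libraries, and its value was 0.037 with total-count scaling. For let-7a-5p, which is shared by more than 1 hairpin, the value was -0.33 (SE 0.12, adjusted p = 0.0979), and let-7e-5p had 0.07 (SE 0.13). The highest value was that of let-7i-5p, at 0.46 (SE 0.14, adjusted p = 0.0554), whose 3p arm had a negative estimate.

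**Figure D2:**
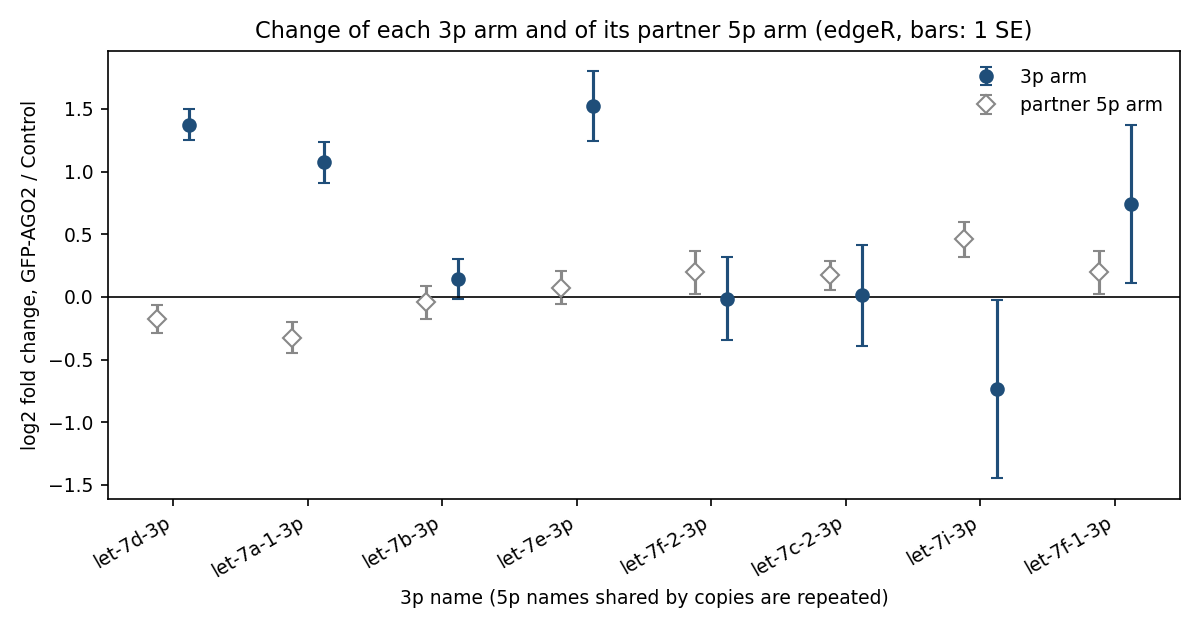
Log2 fold change (GFP-AGO2 over Control, edgeR) of each tested let-7 3p arm (filled circles) and of its partner 5p arm (open diamonds), with bars of 1 SE. For let-7d, let-7a and let-7e the 3p value lies above 1 while the 5p value lies between -0.33 and 0.07.

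The ratio of the arms within a library compares strands of the same precursor, and library scaling cancels in it. Because 5p names are shared by hairpin copies, the 3p counts of copies were summed, let-7a-2-3p and let-7c-1-3p included. This left 9 let-7 hairpin groups, of which 7 had enough counts to be tested, and the 5p arm was the larger in all of them. The ratio rose in 3 of the 7 (let-7d, let-7a and let-7e) and fell in none (limma, adjusted p under 0.05 over 121 hairpins), while 13.2% of all hairpins tested were called higher and 5.79% lower. Both GFP-AGO2 libraries lay above both Control libraries in 4 of the 7, against 37.2% of all hairpins, and below in none, against 27.3%.

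Let-7d stood apart in the level of its ratio. It had 23.8, 24.4, 72.0 and 69.1 counts of the 3p arm per 100 counts of the 5p arm, again in the order Control replicates 1 and 3, GFP-AGO2 replicates 1 and 3. The GFP-AGO2 libraries lay far above the Control libraries, at 70.5 ± 2.10 against 24.1 ± 0.424 (SD, n = 2 each). The difference was 2.93-fold (log2 change 1.55, SE 0.23, limma adjusted p = 0.0341). Put as a share, the 3p arm made up 19.2% (95% Clopper-Pearson interval 18.7% to 19.7%) and 19.6% (19.0% to 20.2%) of let-7d counts in Control and 41.9% (41.6% to 42.2%) and 40.8% (40.5% to 41.2%) in GFP-AGO2. None of the other let-7 hairpins came near this level.

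Let-7a had 0.984, 0.897, 2.60 and 2.33 counts of the 3p arm per 100 of the 5p arm (log2 change 1.39, SE 0.24, limma adjusted p = 0.0346). Let-7e had 0.214, 0.241, 0.527 and 0.719 (1.42, SE 0.29, limma adjusted p = 0.0486). In both, each GFP-AGO2 library lay above both Control libraries. Let-7b had 0.345, 0.358, 0.379 and 0.424 (0.19, SE 0.24, limma adjusted p = 0.653), which is separated but was not called. Let-7c was lower still, at 0.0411, 0.0407, 0.0327 and 0.0420 (-0.16, SE 0.26), with overlapping groups. The ratios of let-7a and let-7c depend on how the alignment divided reads between the identical let-7a-1-3p and let-7c-2-3p. They are therefore not independent measurements of each hairpin, and a ratio for the summed pair was not computed. The groups also overlapped for let-7f, at 0.163, 0.0929, 0.106 and 0.172 (0.12, SE 0.45), and for let-7i, at 0.0432, 0.179, 0.0485 and 0.0446 (-0.94, SE 0.77). MiR-98 and let-7g were not tested. MiR-98 had 0.375, 0, 0.744 and 0.523 counts of the 3p arm per 100 of the 5p arm, the 0 resting on 486 counts, which allows a share of up to 0.756%.

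**Figure D3:**
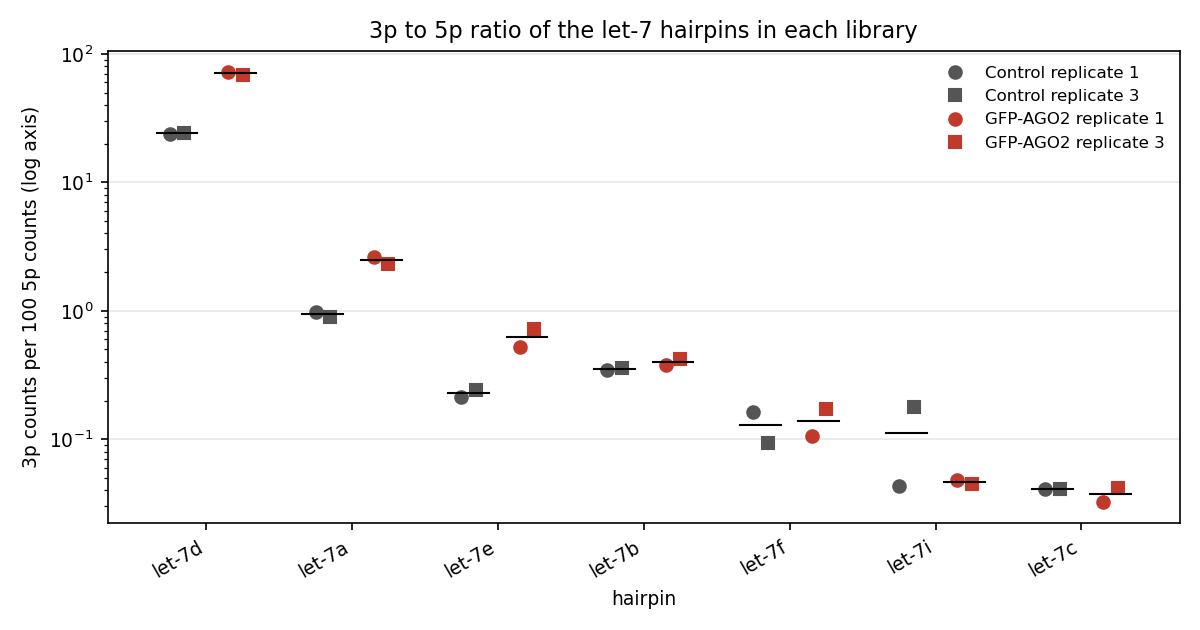
Counts of the 3p arm per 100 counts of the 5p arm (log axis) for the 7 tested let-7 hairpins in each library, with a bar at each group mean. The groups are clear of each other for let-7d, let-7a, let-7e and, narrowly, let-7b. The let-7a and let-7c ratios depend on how the alignment divided reads of their identical 3p sequences.

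Among all 121 hairpins the rise of let-7d was of rank 21, and 20 hairpins had a larger estimate. Besides the 3 let-7 hairpins, 13 of the 114 others were called higher. They included miR-376b (3.78, SE 0.41) and miR-323 (3.69, SE 0.29). In miR-323 the 3p arm was the larger in every library. In miR-376b the 5p arm was the larger in both Control libraries and the 3p arm in both GFP-AGO2 libraries. In miR-181a (1.95, SE 0.23) the 5p arm was the larger, as in let-7. In 57 other hairpins the 5p arm was the larger by counts summed over all libraries. Of these, 5 were called higher and 3 lower, with a median change of 0.10. The GFP-AGO2 counts thus helped set this class. MiR-376b, miR-329, miR-667, miR-708 and miR-485 were called higher and lay outside it, though the 5p arm was larger in both Control libraries. MiR-6516 was called lower and lay inside it, though its 3p arm was larger in both Control libraries. A class set by Control alone was not tested. The median change was 0.19 over the 7 let-7 hairpins and 0.09 over the 114 others. The calls of the ratio depended on the test. When the replicate number was a block none of the let-7 hairpins was called (adjusted p 0.0814 to 0.0861 for let-7d, let-7a and let-7e), and none was called higher when any 1 of the 4 libraries was left out, where let-7d kept a log2 change of 1.52 to 1.58 at an adjusted p of 0.112 to 0.185. With edgeR on the counts of both arms, let-7d (1.55, adjusted p = 0.00379), let-7a (1.39, adjusted p = 0.00402) and let-7e (1.44, adjusted p = 0.0131) were called, with 15.7% of all hairpins called higher and 6.61% lower.

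**Figure D4:**
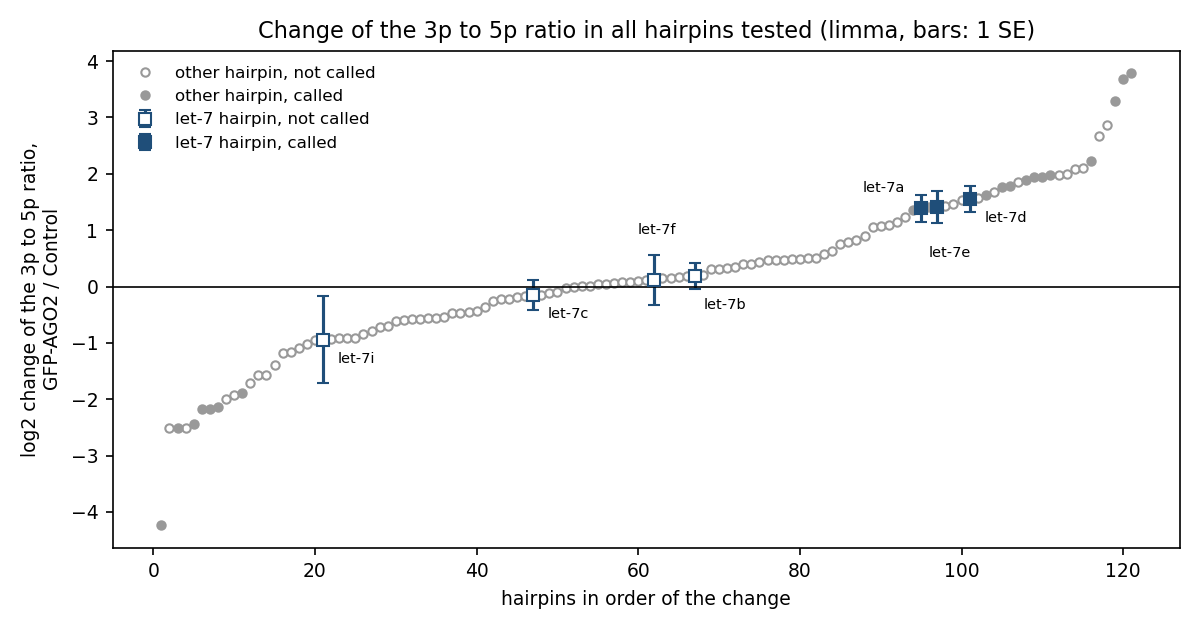
Log2 change of the 3p to 5p ratio (limma) of all 121 hairpins tested, in order of the change, with bars of 1 SE on the 7 let-7 hairpins (squares). Let-7d, let-7a and let-7e are called and stand at ranks 21, 27 and 25 from the top, and let-7i lies in the lower part with a wide bar.

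As shares of the libraries, the 10 arms together made up 0.602%, 0.601%, 1.72% and 1.67% of all miRNA counts. The group means, 0.602% ± 0.000747 and 1.69% ± 0.0383 (SD, n = 2 each), were 1.09 percentage points apart. The exact two-sided permutation p was 0.333, the smallest that 2 libraries against 2 can give. Without let-7d-3p the other 9 arms made up 0.107%, 0.109%, 0.218% and 0.198%, so the groups were separated in the same direction. The epithelial and sensory miRNAs took a large share of the Control counts, and with the miR-183 cluster and the miR-200 family left out of the denominator the 10 arms made up 0.792%, 0.785%, 1.77% and 1.76%.

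Within the family, the 3p arms made up 1.54%, 1.46%, 3.35% and 3.55% of all let-7 and miR-98 counts, with means of 1.5% ± 0.0521 and 3.45% ± 0.14 (SD, n = 2 each). This measure does not depend on other miRNAs. The exact two-sided permutation p was again 0.333. Without either let-7d arm the shares were 0.292%, 0.283%, 0.456% and 0.458%. Let-7d-3p itself made up 82.3%, 81.8%, 87.3% and 88.1% of the 3p counts, higher in both GFP-AGO2 libraries than in both Control libraries.

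As a comparison for passenger arms in general, the minor arm of every other hairpin with both arms tested was listed, 123 names in all. Of these, 21 rose (17.1%) and 14 fell (11.4%), with a median log2 fold change of -0.08. The minor arm was the one with the lower mean CPM over both groups together, so the changes themselves helped set the list. MiR-485-3p, the lower arm in Control, rose past its partner and was not listed. MiR-6516-3p, the higher arm in Control, fell below its partner and was listed. A list set by Control alone was not made. Among all tested miRNAs 17.3% were called higher and 17.1% lower, with a median of -0.01. Of the 63 among the minor arms that are 3p arms, 11 rose (17.5%) and 7 fell (11.1%), with a median of 0.18. The let-7 3p arms had 3 of 8 called higher, and whether that share differs from these was not tested.

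MiRNAs from the same genomic clusters as let-7 hairpins were described from a list of 11 miR-99, miR-100 and miR-125 names, of which 9 were tested. The edgeR test called 3 higher and none lower, with a median log2 fold change of 0.25. All 3 come from the cluster of let-7e: miR-99b-5p (0.83, SE 0.12, adjusted p = 0.00687), miR-125a-5p (0.45, SE 0.12, adjusted p = 0.0389) and miR-125a-3p (1.35, SE 0.22, adjusted p = 0.00839). MiR-125a-3p, the passenger of that hairpin, had 75.9, 102, 222 and 230 CPM, so both GFP-AGO2 libraries lay above both Control libraries as for let-7e-3p, which lies 422 bases away. The 3p to 5p ratio of miR-125a was higher in both GFP-AGO2 libraries, as for let-7e, but was not called (0.90, SE 0.30, limma adjusted p = 0.131). The ratio changes of miR-125a and let-7e were not compared by a test. The ratio of miR-99b was lower in both GFP-AGO2 libraries and was not called (-0.58, SE 0.23, limma adjusted p = 0.189). The fourth tested name of the cluster, miR-99b-3p, lies 157 bases from let-7e-3p and was not called (0.25, SE 0.15, adjusted p = 0.263). The calls of miR-99b-5p and miR-125a-5p were lost without either Control library, at an adjusted p of 0.0936 and 0.127 for miR-99b-5p and 0.223 and 0.408 for miR-125a-5p without Control replicates 1 and 3. The call of miR-125a-5p was also lost with the replicate block (adjusted p = 0.107), with the filter at 50 counts (adjusted p = 0.0688) and without the miR-183 and miR-200 names (adjusted p = 0.0522). On chromosome 13 let-7d-3p and let-7a-1-3p rose while let-7f-1-3p was not called.

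For the 3 most abundant arms, the tested miRNAs with the most similar profile were found by Euclidean distance over the 4 libraries of log2 CPM centred per miRNA. For let-7d-3p they were miR-434-3p (distance 0.11), miR-361-5p (0.13) and miR-760-3p (0.14). For let-7a-1-3p they were miR-409-3p (0.06), miR-20a-5p (0.14) and miR-340-3p (0.15). The profile of let-7b-3p was nearest to let-7c-5p (0.05), let-7e-5p (0.09) and miR-129-5p (0.10), which were not called either. These distances rest on 4 libraries.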

How the data were processed

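Per the file headers, the deposited values are whole-number counts per mature miRNA name, which the authors obtained from primary alignments to mm10, using featureCounts v1.4.6-p1 and a mouse miRNA annotation. The command carried no strand option and none for reads that overlap more than 1 name. STAR and cutadapt had been used, per the submitters' processing notes, with versions not given in the sources used here, nor is any collapsing of PCR copies, so intervals and limits cover counting error only. A limit from 0 counts is 3 counts of the library total. Reads of identical mature names are divided by the aligner.

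Differences between the groups were tested on the counts by edgeR 4.0.16 under R 4.3.3 (quasi-likelihood F test, two-sided, TMM factors, filterByExpr at a minimum count of 10), with Benjamini-Hochberg adjustment over the 457 names tested, which held 99.88% to 99.93% of each library's counts. Calls required an adjusted p below 0.05. The SE was taken from the estimate and its F value. Ratios of arms were log2((3p + 0.5)/(5p + 0.5)), tested with limma 3.58.1 over 121 hairpins with a mean of at least 10 counts in both arms. Shares were compared by exact permutation tests. Both fits were first run on simulated counts with the same dispersion for every miRNA. These data need not follow that setting, so the run does not measure the error rate here. Alternatives were other scaling, DESeq2 1.42.0, filters, pseudocounts, the replicate number as a block, and each library left out. Replicates of a group were not copies of the same library (chi-square 4564 on 383 degrees of freedom in Control, 47711 on 475 in GFP-AGO2).

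The arms are defined by their names, but the choice of this family, the lists and the tests was made with earlier results of these data known. The names given were all 10 arms, their partner 5p arms, tested neighbours from the let-7 clusters, the 3 nearest profiles of the 3 most abundant arms, and abundant names of each cell type list. The other hairpins named for their ratio, and the minor arms named as examples, were chosen after their values were seen. Sequences were taken from RefSeq (GRCm38.p6), whose positions of these names equal those in the deposited table.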

Additional observations from a re-analysis of the deposited data

How the results depend on the processing

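The count of let-7 3p arms called higher was 3 with total-count scaling, DESeq2, no filter, a filter at 50 counts and the replicate number as a block, and 2 to 3 when a library was left out, with none called lower in any of these. Let-7d-3p (1.28 to 1.61) and let-7e-3p (1.36 to 1.76) were called in all 16 alternatives, let-7a-1-3p (0.92 to 1.31) in 14. Total-count scaling raised the median over all 457 miRNAs from -0.01 to 0.20 and that of the tested arms from 0.44 to 0.66, and values near 0 changed sign. With total counts and with no filter, let-7f-2-3p became 0.19 and 0.23, miR-99a-5p 0.16 and 0.17, and miR-124-3p 0.064 and 0.091, and with no filter miR-100-5p became 0.012. Let-7b-5p became 0.17 and 0.20 and let-7d-5p 0.037 and 0.063 under the same 2 settings. Let-7f-2-3p was 0.00088 without miR-183 and miR-200 counts. With the filter at 50 counts let-7e-5p became -0.014, let-7g-5p -0.052 and miR-125b-1-3p -0.073. With a pseudocount of 5 the ratio change of let-7f was -0.0084. The labels do not say whether replicate numbers pair libraries, and the counts showed no sign of it (r = -0.061 between the deviations of Control replicate 1 and GFP-AGO2 replicate 1 over 457 miRNAs). With 2 libraries per group this is a single correlation, which cannot exclude pairing. With the replicate block, let-7d-3p (1.37, adjusted p = 0.000847), let-7a-1-3p (1.07, adjusted p = 0.00276) and let-7e-3p (1.51, adjusted p = 0.00928) remained called, let-7c-2-3p became -0.0097, and 0 let-7 hairpins had a ratio called higher, as did 0 of all 121. With a minimum of 1 count per arm, 0 of 364 hairpins were called higher. Leaving out each library gave 0 let-7 ratios called higher and 0 to 1 called lower (let-7i, -1.95, adjusted p = 0.0403, without Control replicate 1). With copies kept apart the ratio of let-7e missed the threshold (adjusted p = 0.0563). Over all miRNAs 47 were called higher and 43 lower with Control replicate 1 left out, and 49 and 53 with Control replicate 3 left out. In fits with a library left out, the filter on low counts was also rerun, a choice made after seeing the data; let-7a-1-3p was then called in each. Where signs changed with a library left out, values ranged from -0.36 to 0.31 for let-7c-2-3p, -0.18 to 0.21 for let-7f-2-3p, -1.41 to 0.58 for let-7i-3p, -0.49 to 0.29 for miR-99a-5p, -0.48 to 0.017 for miR-100-5p, -0.24 to 0.27 for miR-125b-1-3p, -0.52 to 0.69 for miR-125b-2-3p, -0.29 to 0.037 for miR-124-3p, -0.16 to 0.083 for let-7b-5p and -0.053 to 0.13 for let-7g-5p, and for the ratio from -0.34 to 0.025 for let-7c, -0.28 to 0.52 for let-7f and -1.95 to 0.062 for let-7i. The library left alone in its group is then assumed to vary like the other group. The share of the 10 arms differed by 0.973 points without miR-183 and miR-200 counts, by 0.923 on the TMM-scaled library size and by 0.0998 without let-7d-3p. The 3p share of let-7 counts differed by 0.170 points without the let-7d arms. The cause of these shifts was not tested. Depth limits the 5 arms with fewer than 100 counts in every library.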
